A study of Mus musculus with 74 samples.

Results

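Total thymocytes taken 12 h after injection of antigenic peptide were compared with thymocytes of uninjected animals, both from mice with the DO11.10 transgenic T cell receptor. The comparison holds 6 of the 74 arrays of the series, chosen by their labels. Each is a 2-colour array that carries RNA of injected and of uninjected animals, and by the slide titles 3 arrays per dye orientation were made. The dye fields of the labels name Cy3 for both channels, so dye orientation rests on the titles. The arrays taken at 3 h and at 6 h after peptide (6 each, also over uninjected thymocytes) are used where the times are compared. Fits described as holding all 24 thymocyte arrays also include 6 arrays without peptide. These pair thymocytes labelled mhc -/- with uninjected DO11.10 thymocytes. Both sides of every peptide ratio carried the transgene, and whether the cells also had endogenous receptor chains is not given in the labels. The labels do not name the peptide, its dose, the strain, age or sex of the mice, or whether arrays hold RNA of separate or pooled animals. P-values here therefore describe variation among arrays, part or all of which may be technical.

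The DO11.10 receptor recognises a peptide of ovalbumin on an MHC class II molecule. When developing thymocytes meet their antigen at high dose, strong receptor signals switch on immediate early genes such as the Nr4a and Egr families, and many of the cells die. This is negative selection, in which the death factor Bim, encoded by Bcl2l11, takes part. Injected peptide also activates mature T cells in the whole animal, and their cytokines and stress hormones can reach the thymus.

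Values below are log2 ratios of injected over uninjected thymocytes, so 1 is a 2-fold difference and a negative value is less RNA after peptide. Ratios carry no absolute level, so the label of the tissue could not be checked against its marker genes. The direction is likely, not stated. It rests on Nr4a1, which was positive on 4 of 4 arrays of cells given its own protein Nur77 and on 8 of 8 arrays of stimulated hybridoma cells with the empty virus. Base 2 is an assumption. Since total thymocytes were used, fewer cells of a type and less RNA per cell cannot be told apart in any value below. A probe was called at a limma adjusted p under 0.05 over all 16463 probes, and "rose" and "fell" are used of called genes alone.

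The slide titles put the 6 arrays in 2 sets. Slides 7 and 8 of series 13 hold one array per dye, and slides 13 to 16, titled by a single number, hold 2 per dye. What a series is was not given in the sources used here. Ratios over all probes correlated at 0.67 to 0.85 between the single-number slides, at 0.10 between the 2 series 13 slides and at 0.09 to 0.27 between the sets. The series 13 slides had 956 and 402 probes at least 2-fold higher and 160 and 259 at least 2-fold lower. The single-number slides had 88 to 241 higher and 757 to 913 lower. Titles of both series 13 slides also occur among the 3 h arrays, as do those of 2 of the 6 h arrays, and no columns of values were identical. Many genes are therefore given by array, and set means are added to the 6-array mean of named genes whose sets differed by test.

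Over the 6 arrays, 557 of 16463 probes were called (3.38%), 274 higher (1.66%) and 283 lower (1.72%) after peptide. Of these, 93 rose and 46 fell at least 2-fold. The same sign on all 6 arrays was found for 531 of the 557, against 2003 of all 16463 probes. A call over these arrays itself favours probes of 1 sign, so this is no separate support. The count of 557 turned on single arrays. Without either series 13 slide it was 1832 or 1629, and without any 1 of the single-number slides it was 46 to 94. The 4 single-number slides alone gave 4067 calls (24.7%), 1394 higher (8.47%) and 2673 lower (16.2%). All 557 probes were among these calls, but the slides are 4 of the same 6 arrays, so the overlap is not an independent check. With slide set as a random block, 138 probes were called. Of the 85 genes that the naming rule gave as called over the 6 arrays, 17 kept their call whichever array was left out. These are Tnfrsf4, Ccl22, Rtp4, Ifi27l2a, Mt2, Bhlhe40, Gadd45b, Stx11, Gbp2b, Gbp2, Tnfrsf18, Runx3, B2m, Traf1, Birc3, Bcl2l11 and Prss16. The other 68 lost it in at least 1 of the 6 fits. Counts of list members over the 6 arrays below are to be set beside 1.66% of all probes higher and 1.72% lower. No list was tested against these shares.

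Rises of nearly equal size on all 6 arrays were found in genes of activated T cells and of the chemokine system. Tnfrsf4, which encodes the costimulatory receptor OX40, measured 3.08 and 3.26 on the series 13 slides and 3.04, 2.58, 3.45 and 3.09 on the single-number slides (mean 3.08, SE 0.09, adjusted p = 0.000242). That is 8.46-fold more RNA after peptide, with the slide sets overlapping. Ccl22, a chemokine that draws cells bearing the receptor CCR4, measured 3.38 and 2.86 on the series 13 slides and 3.21, 2.63, 3.07 and 3.11 on the single-number slides (mean 3.04, SE 0.11, adjusted p = 0.000247), again with overlapping sets. Gadd45b, a stress sensor that activates MAP kinases, measured 2.02 and 2.59 on the series 13 slides and 2.13, 2.04, 2.44 and 2.11 on the single-number slides (mean 2.22, SE 0.08, adjusted p = 0.000247). All 3 genes were at least 4-fold higher on every array. Tnfrsf18, which encodes the receptor GITR, measured 2.24 and 2.05 on the series 13 slides and 1.56, 1.67, 1.90 and 1.93 on the single-number slides (mean 1.89, SE 0.10, adjusted p = 0.00145).

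Bhlhe40, a transcriptional repressor induced in activated lymphocytes, measured 3.24 and 2.25 on the series 13 slides and 1.94, 1.69, 2.06 and 2.39 on the single-number slides (mean 2.26, SE 0.20, adjusted p = 0.00675). Stx11, a syntaxin needed for release of cytotoxic granules, measured 2.49 and 1.50 on the series 13 slides and 2.26, 1.78, 2.28 and 2.42 on the single-number slides (mean 2.12, SE 0.15, adjusted p = 0.00306). Mt2, a metallothionein induced by metals and glucocorticoids, measured 2.43 and 3.01 on the series 13 slides and 2.13, 1.32, 2.18 and 2.56 on the single-number slides (mean 2.27, SE 0.17, adjusted p = 0.00393). The lowest value of the 3 genes was 1.32, for Mt2. Arhgap20, a GTPase-activating protein, had a mean of 2.41 (SE 0.32), but its 6 values ran from 1.37 to 4.66, both on series 13 slides, and its call was lost in 3 fits that left out an array.

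**Figure D1:**
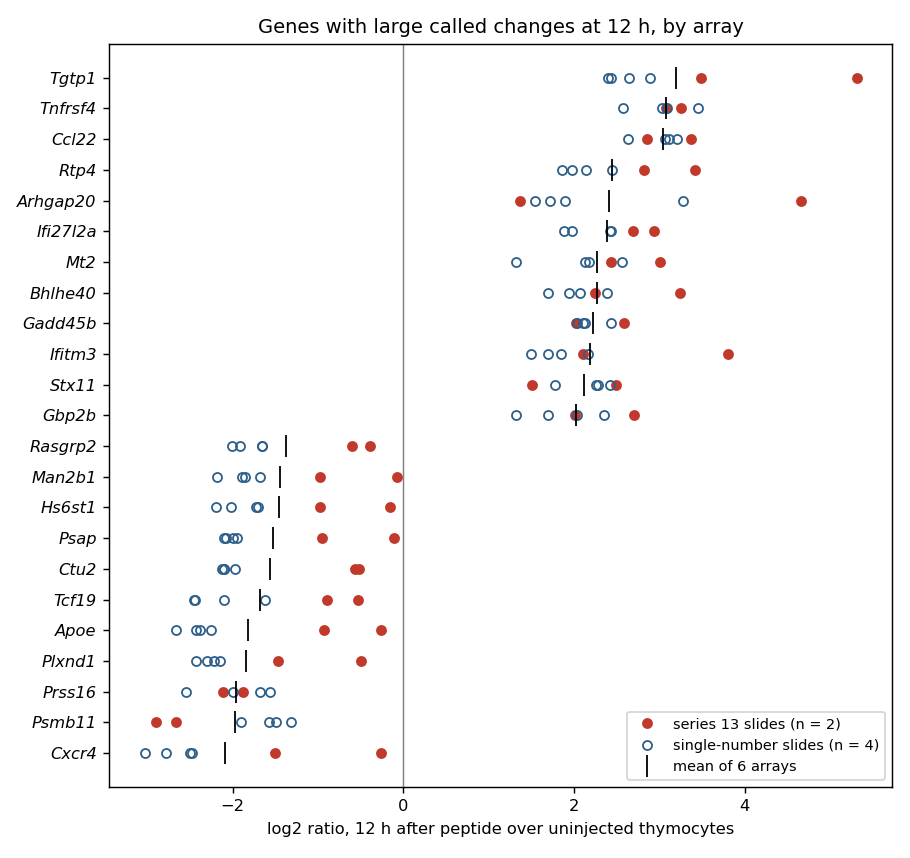
Log2 ratio of injected over uninjected thymocytes (x axis) for the 12 highest and 11 of the 12 lowest called genes with the same sign on all 6 arrays (y axis). Filled points are the 2 series 13 slides, open points the 4 single-number slides and the bar their mean. Tnfrsf4, Ccl22, Gadd45b and Prss16 have overlapping slide sets, whereas most of the genes that fell lie nearer to 0 on the series 13 slides.

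Of 25 immediate early and receptor-induced transcription factor genes, 8 rose and 1 fell, where 1.66% and 1.72% of all probes did. The list median was 0.34 against 0.01 over all probes. Nr4a1, the orphan nuclear receptor Nur77, measured 2.28 and 3.25 on the series 13 slides and 1.34, 1.13, 0.93 and 1.59 on the single-number slides (mean 1.75, SE 0.31, adjusted p = 0.0402). Both series 13 slides lay above all the others, and the sets differed (difference 1.52, SE 0.27, adjusted p = 0.0167). Irf4, a factor induced in proportion to receptor signal, measured 2.12 and 1.26 on the series 13 slides and 1.11, 1.44, 1.36 and 1.17 on the single-number slides (mean 1.41, SE 0.13, adjusted p = 0.00711). Egr2 and Egr1, zinc finger factors downstream of MAP kinase, had means of 1.36 (SE 0.18) and 0.93 (SE 0.13). Nab2, which represses the Egr factors, had a mean of 0.91 (SE 0.08), Jun 0.69 (SE 0.09), Id3 0.57 (SE 0.09) and Nr4a2 0.56 (SE 0.11). Arc fell, with -0.77 (SE 0.14), and its set means of -0.33 and -0.99 for series 13 and single-number slides differed. Fos, Egr3 and Myc were not called, with means of 0.21, 0.13 and -0.11.

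Among 13 subunits and feedback genes of NF-kB, a factor that relays signals of antigen and TNF receptors, 4 rose and 0 fell. Over all probes, 1.66% rose and 1.72% fell. Traf1, an adaptor of TNF receptors, measured 1.13 and 1.15 on the series 13 slides and 1.16, 0.82, 1.15 and 1.02 on the single-number slides (mean 1.07, SE 0.07, adjusted p = 0.00306). Birc3, a ubiquitin ligase that limits cell death, had a mean of 1.06 (SE 0.07) on its first probe, whereas its second probe had 0.16 and was not called. The inhibitor gene Nfkbia rose with 0.70 (SE 0.08) and the subunit gene Rel with 0.70 (SE 0.13). The feedback enzyme gene Tnfaip3 was not called over the 6 arrays, and its set means were 0.67 on series 13 and -2.29 on single-number slides (difference 2.96, SE 0.42, adjusted p = 0.00677).

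Of 30 T cell activation receptor, ligand and cytokine genes, 6 rose and 1 fell, where 1.66% and 1.72% of all probes did. Besides Tnfrsf4 and Tnfrsf18, Il2rb, a receptor chain for interleukins, had 1.44 (SE 0.25), with set means of 2.26 and 1.03 for series 13 and single-number slides that differed. Cd69, a surface protein that holds activated cells in the tissue, measured 0.52 and 1.23 on the series 13 slides and 1.42, 1.18, 1.43 and 1.63 on the single-number slides (mean 1.23, SE 0.13, adjusted p = 0.00940). Xcl1, a chemokine for cross-presenting dendritic cells, had 0.95 (SE 0.08) and the costimulatory receptor gene Icos 0.45 (SE 0.08). Cd40lg, the ligand by which helper cells activate antigen-presenting cells, fell with -0.81 (SE 0.15). Cytokine genes themselves were not called, with means of 0.14 for Il2, 0.09 for Ifng, 0.07 for Il4 and 0.68 for Tnf. Tnfrsf9, the receptor 4-1BB, has probes that disagree. Its first probe had 0.07, and its second, looked at after its value was seen, had 3.65 (SE 0.24, adjusted p = 0.00306). Dusp4, a phosphatase that ends MAP kinase signals, was the 1 of 15 phosphatase and Ras-pathway inhibitor genes that rose (1.31 (SE 0.16)), and 0 of them fell.

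Of 24 apoptosis genes, 3 rose and 0 fell, where 1.66% and 1.72% of all probes did. Bcl2l11, which encodes Bim, measured 0.45 and 1.14 on the series 13 slides and 0.64, 0.80, 0.93 and 1.15 on the single-number slides (mean 0.85, SE 0.07, adjusted p = 0.00675), a 1.80-fold rise shared by all 6 arrays. Pmaip1, which encodes the related death factor Noxa, had 0.41 (SE 0.07), and Gadd45b was the third. The antiapoptotic genes Bcl2, Mcl1 and Bcl2l1 were not called, with means of 0.25, -0.05 and -0.15, though the sets of Bcl2l1 differed, with -0.59 on series 13 and 0.07 on single-number slides. Of 16 p53 target genes, 2 rose and 1 fell. Cdkn1a, an inhibitor of cell cycle kinases, had 0.78 (SE 0.14), with differing set means of 1.23 and 0.56 for series 13 and single-number slides. Pmaip1 was the other, and Aen, a nuclease, fell with -0.71 (SE 0.13). Of 18 genes for clearance of dying cells, 0 rose and 2 fell. These were Gas6, a bridging ligand, with -0.93 (SE 0.11), and Axl, one of its receptors, with -0.59 (SE 0.09).

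Of 27 chemokine and chemokine receptor genes, 8 rose and 2 fell, where 1.66% and 1.72% of all probes did. Ccl2, which attracts monocytes, measured 2.91 and 2.56 on the series 13 slides and 1.04, 1.03, 1.62 and 1.85 on the single-number slides (mean 1.84, SE 0.27, adjusted p = 0.0248), higher on both series 13 slides. Cxcl9 and Cxcl10, ligands of CXCR3 induced by interferon-gamma, had 1.37 (SE 0.21) and 1.01 (SE 0.18). Ccl8 had 1.11 (SE 0.22), Ccl12 0.86 (SE 0.12) and Cxcl13 0.41 (SE 0.08), and Ccl22 and Xcl1 complete the 8. Set means for series 13 and single-number slides differed for Cxcl10 (1.58 and 0.72) and Ccl8 (1.82 and 0.75). Cxcr4, a receptor that keeps immature thymocytes in the cortex, measured -1.50 and -0.26 on the series 13 slides and -2.78, -2.50, -3.03 and -2.48 on the single-number slides (mean -2.09, SE 0.37, adjusted p = 0.0402). All single-number values lay below both series 13 values. Ccl25, made by thymic epithelium, had -1.34 (SE 0.22). The receptor genes Ccr7 and Ccr9 were not called, with 0.70 and 0.25.

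Genes linked to interferon-gamma formed the list with the most calls, and which interferon or other signal raised them was not tested. Of 25 measured, 13 rose and 0 fell, where 1.66% and 1.72% of all probes did, and the list median was 1.01. By array its median was 1.27 and 1.31 on series 13 slides and 0.76, 0.68, 0.95 and 0.66 on single-number slides, so all 6 were positive and the sets did not overlap. With the single-number slides alone 16 rose and 3 fell, where 8.47% and 16.2% of all probes did. Between the slide sets, 8 of the 25 were called higher on series 13 and 0 lower, where 8.19% and 0.869% of all probes were. Tgtp1, a GTPase of resistance to intracellular microbes, measured 5.31 and 3.49 on the series 13 slides and 2.64, 2.89, 2.40 and 2.44 on the single-number slides (mean 3.19, SE 0.36, adjusted p = 0.0133). Series 13 slide 7 stood far above the rest. Gbp2, a guanylate-binding protein, measured 2.25 and 2.80 on the series 13 slides and 1.57, 1.79, 1.49 and 1.79 on the single-number slides (mean 1.95, SE 0.18, adjusted p = 0.00713). Its relative Gbp2b had 2.02 (SE 0.12), and Gbp3 had 1.84 (SE 0.26) with a low value of 0.24 on series 13 slide 8. Gbp2, Gbp2b and Gbp3 are close paralogs, and how far their probes share signal was not tested.

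The other risers of this list were the GTPase genes Igtp (1.52) and Irgm2 (1.47), the transcription factors Irf1 (1.09) and Irf8 (1.15), the inhibitory ligand Cd274 (1.53), the signalling inhibitor Socs3 (1.56), the immunoproteasome subunit Psmb9 (0.95) and the peptide-loading factor Tapbp (1.20), with Cxcl9 and Cxcl10. Of these GTPase genes, Igtp had 2.12 on series 13 and 1.22 on single-number slides and Irgm2 2.00 and 1.20, and both differed between the sets. Tap1, the peptide transporter, was not called, and its set means had opposite signs, 0.95 and -1.04, for series 13 and single-number slides (difference 1.99, SE 0.27, adjusted p = 0.00540).

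Genes of the type I interferon response varied more between the arrays. Of 28 measured, 4 rose over the 6 arrays and 0 fell, where 1.66% and 1.72% of all probes did, and the list median was 0.69. With the single-number slides alone 15 rose and 4 fell, where 8.47% and 16.2% of all probes did. Rtp4, a chaperone of receptors, measured 2.83 and 3.42 on the series 13 slides and 2.45, 2.14, 1.85 and 1.98 on the single-number slides (mean 2.44, SE 0.22, adjusted p = 0.00685). Isg15, a ubiquitin-like modifier, measured 2.15 and 2.52 on the series 13 slides and 0.86, 0.98, 1.43 and 1.22 on the single-number slides (mean 1.53, SE 0.23, adjusted p = 0.0266). The nucleic acid sensors Zbp1 and Ifih1 had 1.42 (SE 0.23) and 1.13 (SE 0.19). Both were higher on series 13 than on single-number slides, with set means of 2.19 and 1.03 for Zbp1 and 1.75 and 0.82 for Ifih1. Ifi27l2a, an interferon-induced mitochondrial protein outside that list, measured 2.69 and 2.94 on the series 13 slides and 1.89, 1.98, 2.42 and 2.44 on the single-number slides (mean 2.39, SE 0.13, adjusted p = 0.00145), and Ifitm3, which blocks entry of viruses, had 2.19 (SE 0.26).

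Most of the list differed between the slide sets, with 18 of 28 higher on series 13 and 0 lower. Over all probes, 8.19% were higher on series 13 and 0.869% lower. The list median per array was 1.71 and 1.50 on series 13 slides, against 0.35, 0.19, 0.36 and 0.43 on single-number slides. Mx2 had set means of 2.76 and 0.65, Usp18 2.32 and 0.51, Oas2 1.52 and 0.26 and Rsad2 2.54 and -0.64 for series 13 and single-number slides. Irf7, the factor that amplifies the response, had 2.43 on series 13 and -0.94 on single-number slides (difference 3.37, SE 0.19, adjusted p = 0.000487). Thus Irf7 and Rsad2 had opposite signs in the sets, and neither was called over the 6 arrays.

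The promoters of 5 risers among the interferon-linked genes are printed because they carry the element that interferon-activated factors bind. Sequences are RefSeq windows of 300 bases, from 250 before to 50 after the annotated start, in build GRCm38.p6, 5′ to 3′ on the strand of the gene. Capitals mark GAAA, 2 bases of any kind and GAAA again, on either strand, which is the core of the interferon-stimulated response element.
Tgtp1, chr11:48992197-48992496, minus strand: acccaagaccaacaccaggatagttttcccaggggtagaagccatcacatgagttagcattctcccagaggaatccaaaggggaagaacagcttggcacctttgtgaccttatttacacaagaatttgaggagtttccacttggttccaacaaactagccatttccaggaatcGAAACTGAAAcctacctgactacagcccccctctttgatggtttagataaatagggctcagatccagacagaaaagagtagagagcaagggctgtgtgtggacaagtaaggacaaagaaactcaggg
Gbp2, chr3:142620413-142620712, plus strand: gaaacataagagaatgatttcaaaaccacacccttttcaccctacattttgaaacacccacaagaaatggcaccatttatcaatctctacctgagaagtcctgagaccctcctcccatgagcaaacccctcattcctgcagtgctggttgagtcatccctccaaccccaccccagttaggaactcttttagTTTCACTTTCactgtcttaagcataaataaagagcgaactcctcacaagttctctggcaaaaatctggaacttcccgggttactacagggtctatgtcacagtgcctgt
Igtp, chr11:58199306-58199605, plus strand: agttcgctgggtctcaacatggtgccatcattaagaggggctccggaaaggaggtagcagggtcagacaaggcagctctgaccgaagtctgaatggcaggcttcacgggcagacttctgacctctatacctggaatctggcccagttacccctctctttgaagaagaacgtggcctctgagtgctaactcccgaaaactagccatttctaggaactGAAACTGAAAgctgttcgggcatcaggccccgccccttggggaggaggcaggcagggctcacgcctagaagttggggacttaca
Isg15, chr4:156200769-156201068, minus strand: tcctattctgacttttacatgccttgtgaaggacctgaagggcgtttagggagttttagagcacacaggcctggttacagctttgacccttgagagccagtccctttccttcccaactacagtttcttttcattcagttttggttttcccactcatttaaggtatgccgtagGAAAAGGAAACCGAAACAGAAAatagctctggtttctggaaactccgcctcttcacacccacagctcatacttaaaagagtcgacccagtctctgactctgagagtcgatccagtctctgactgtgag
B2m, chr2:122147437-122147736, plus strand: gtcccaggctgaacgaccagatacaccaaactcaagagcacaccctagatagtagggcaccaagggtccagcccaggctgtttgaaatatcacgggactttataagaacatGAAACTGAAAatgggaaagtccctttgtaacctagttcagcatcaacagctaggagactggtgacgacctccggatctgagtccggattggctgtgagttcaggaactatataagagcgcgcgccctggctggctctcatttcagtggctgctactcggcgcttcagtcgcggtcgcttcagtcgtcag
Counted from the start, the capitals begin at -77 in Tgtp1, -59 in Gbp2, -34 in Igtp, -78 in Isg15 and -139 in B2m. In Isg15 they are 3 overlapping matches. Over all 32851 windows, 3.44% hold this motif, and 1079 of 27025 genes have a window with it. The 13 genes of the interferon-gamma list that rose have 16 windows, and the motif was found for 6 genes (Gbp2, Gbp3, Igtp, Irgm2, Tgtp1 and Cxcl10). The motif TTCNNNGAA is read by STAT factors and reads the same on both strands. For it, 6 of the 13 genes had a match (Irf1, Irf8, Igtp, Irgm2, Tgtp1 and Socs3), against 2582 of all 27025 genes. By window, 8.30% of all windows hold it. Some matches of the 2 motifs may overlap. A match describes the letters, and binding was not measured. Windows for Rtp4, Ifi27l2a and Zbp1 were not found in the table by these symbols.

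Of 13 MHC class I genes, 3 rose and 0 fell, where 1.66% and 1.72% of all probes did. B2m, the shared light chain, measured 1.35 and 1.43 on the series 13 slides and 0.73, 1.16, 1.59 and 1.21 on the single-number slides (mean 1.24, SE 0.10, adjusted p = 0.00572), with overlapping sets. Tapbp had 1.20 (SE 0.11) and H2-M3, a nonclassical heavy chain, 0.58 (SE 0.09). H2-D1, a classical heavy chain, was not called with 0.31. Psme1, a proteasome activator subunit induced by interferon-gamma, was the 1 of 25 proteasome genes that rose (0.98 (SE 0.10)), and 0 fell. Of 12 MHC class II presentation genes, the protease gene Ctss rose (0.80 (SE 0.14)) and 0 fell. H2-Aa and H2-Ab1, the chains of the class II molecule, had set means of -0.29 and -1.70 and of -0.23 and -1.75 for series 13 and single-number slides, and both differed between sets.

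Genes of CD4+CD8+ double-positive thymocytes, the cortical majority, had negative medians on all 6 arrays. Of 21 measured, 0 rose and 2 fell, where 1.66% and 1.72% of all probes did. The list median was -0.42, with medians by array between -0.38 and -0.20. Plxnd1, a receptor that guides these cells to the medulla, measured -1.47 and -0.50 on the series 13 slides and -2.15, -2.21, -2.42 and -2.31 on the single-number slides (mean -1.84, SE 0.27, adjusted p = 0.0231). Nrp1, a semaphorin receptor, had -0.53 (SE 0.10). Rag1, the recombinase that rearranges receptor genes, was not called and measured -1.57 and -1.24 on the series 13 slides and -0.46, -0.07, -0.58 and -0.34 on the single-number slides (mean -0.71, SE 0.21, adjusted p = 0.111). Both series 13 values lay below all the others (difference -1.04, SE 0.19, adjusted p = 0.0194), and Rag2 likewise had set means of -1.27 and -0.41 for series 13 and single-number slides. Cd4 and Cd8a were not called, with means of -0.49 and -0.22. Bcl6 had -0.05 on series 13 and -3.17 on single-number slides (difference 3.12, SE 0.16, adjusted p = 0.000357).

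Among the 24 markers of mature single-positive cells, 4 rose and 0 fell, with a list median of 0.28. Over all probes, 1.66% rose and 1.72% fell. S100a6, a calcium-binding protein, measured 1.94 and 2.12 on the series 13 slides and 0.95, 0.84, 1.26 and 1.29 on the single-number slides (mean 1.40, SE 0.18, adjusted p = 0.0182). Runx3, which sets the CD8 lineage, measured 1.62 and 0.75 on the series 13 slides and 1.35, 1.12, 1.21 and 1.20 on the single-number slides (mean 1.21, SE 0.10, adjusted p = 0.00572), with overlapping sets. Cd69 and S100a4 (0.54) were the other risers, and the egress receptor S1pr1 was not called (-0.07). Among 18 genes of double-negative and pre-receptor stages, 2 rose and 2 fell. Notch1, the receptor that commits cells to the T lineage, measured -1.13 and -0.51 on the series 13 slides and -1.60, -1.47, -1.21 and -1.22 on the single-number slides (mean -1.19, SE 0.12, adjusted p = 0.00916), and its target Dtx1 had -0.87 (SE 0.08). Kit, a growth factor receptor, had 1.52 (SE 0.19) and the myeloid factor Spi1 0.81 (SE 0.12). Kit differed between the sets, with 2.17 on series 13 and 1.19 on single-number slides. Of 20 genes of the receptor complex and its proximal signalling, the adaptor gene Lat fell (-1.06 (SE 0.17)) and 0 rose. The receptor chains Cd3d, Cd3e and Cd3g had means of 0.03, -0.16 and 0.01. Of 8 class IIa deacetylase, MEF2 and partner genes, Nr4a1 rose and Hdac7, the repressor named in the study's title, fell (-0.57 (SE 0.11)), with -0.30 on series 13 and -0.70 on single-number slides.

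Proliferation lists had negative medians in both slide sets. Of 29 DNA replication genes, 0 rose and 7 fell, where 1.66% and 1.72% of all probes did. The list median of -0.42 was nearly the same on series 13 (-0.43) and single-number slides (-0.42). Cdc6, which loads the replicative helicase, measured -0.61 and -0.68 on the series 13 slides and -1.80, -1.36, -1.18 and -1.18 on the single-number slides (mean -1.14, SE 0.16, adjusted p = 0.0222). Mcm10 had -0.83 (SE 0.09) on its first probe, with -0.43 and no call on its second. Mcm5 had -0.54, Mcm6 -0.61, Gins2 -0.47, Ccne2 -0.65 and the S-phase factor E2f1 -0.54. Mcm2, another helicase subunit, was not called over the 6 arrays and had -0.43 on series 13 and -2.69 on single-number slides (difference 2.27, SE 0.21, adjusted p = 0.00136). Of 27 mitosis genes, 0 rose and 4 fell, with a list median of -0.34. Plk1, a mitotic kinase, measured -0.98 and -0.49 on the series 13 slides and -1.18, -0.74, -1.49 and -1.16 on the single-number slides (mean -1.01, SE 0.14, adjusted p = 0.0198). Top2a had -0.71 (SE 0.10), the spindle genes Prc1 -0.52 (SE 0.09) and Tpx2 -0.45 (SE 0.08), and the proliferation marker Mki67 was not called with -0.53.

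Growth and stress lists held few calls over the 6 arrays, where 1.66% of all probes rose and 1.72% fell. More were called on the single-number slides alone, as was so over all probes (24.7% against 3.38%). Of 18 nucleolar ribosome biogenesis genes, Wdr12 fell (-0.43 (SE 0.08)) and 0 rose, whereas the single-number slides alone gave 14 lower and 1 higher. Of 20 cytosolic ribosomal protein genes 0 were called, and Rpsa lay furthest from 0 with -2.22. Of 13 heat shock chaperone genes, Hsp90aa1 fell, with -0.87 and -0.46 on the series 13 slides and -0.93, -0.68, -0.80 and -0.59 on the single-number slides (mean -0.72, SE 0.07, adjusted p = 0.00940). Of 15 cholesterol synthesis genes, Dhcr7 fell (-0.68 (SE 0.10)). None of 20 unfolded protein and stress response genes, 16 hypoxia and glycolysis genes, 21 oxidative phosphorylation genes or 6 histone genes was called over the 6 arrays. The members furthest from 0 were Atf4 (-0.68), Aldoc (0.81), Ndufv1 (-0.81) and H1f2 (0.26). All 4 differed between the sets, with means for series 13 and single-number slides of 0.06 and -1.05 for Atf4, 2.15 and 0.13 for Aldoc, -0.07 and -1.18 for Ndufv1 and 0.80 and -0.006 for H1f2. Of 16 glucocorticoid-response genes, 3 rose and 0 fell: Mt2, Nfkbia and Tsc22d3, which encodes the mediator GILZ and had 0.58 (SE 0.07). Fkbp5, another glucocorticoid target, had -0.05 on series 13 and -2.57 on single-number slides (difference 2.51, SE 0.17, adjusted p = 0.000649). The single-number slides alone called 7 glucocorticoid-response genes higher and 5 lower, 1 cholesterol gene higher and 7 lower, 7 oxidative phosphorylation genes higher and 3 lower, and 1 ribosomal protein gene higher and 6 lower. They also called 4 unfolded protein, 5 heat shock and 5 hypoxia and glycolysis genes lower and none of these higher, and 1 histone gene higher. Over all probes the same fit called 8.47% higher and 16.2% lower, and no list was tested against these shares.

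Some markers of other cells of the thymus were called as well, and their part in the results above was not tested. Most of these marker lists held a single call or none. Over all probes, 1.66% rose and 1.72% fell. Of 12 cortical epithelium markers, 0 rose and 3 fell. Prss16, a serine protease of these cells, measured -1.88 and -2.12 on the series 13 slides and -1.68, -1.56, -2.54 and -1.998 on the single-number slides (mean -1.96, SE 0.09, adjusted p = 0.00113), with overlapping sets. Psmb11, their thymoproteasome subunit, measured -2.90 and -2.66 on the series 13 slides and -1.58, -1.32, -1.90 and -1.49 on the single-number slides (mean -1.97, SE 0.24, adjusted p = 0.0161), lower on both series 13 slides (difference -1.21, SE 0.19, adjusted p = 0.0110). Ccl25 was the third. Foxn1, the factor that defines thymic epithelium, was not called, with -0.04, and the keratin gene Krt8 had 2.36 on series 13 and 0.15 on single-number slides. Of 12 medullary epithelium markers, Ctss rose and 0 fell, and Aire had 0.05. Krt17 and Cldn4, both epithelial, had set means of 3.36 and 0.81 and of 2.53 and -0.42 for series 13 and single-number slides.

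Of 15 macrophage markers, 1 rose and 2 fell. Hmox1, which degrades haem, had 1.47 (SE 0.19), the iron exporter Slc40a1 -0.81 (SE 0.13) and the complement gene C1qa -0.37 (SE 0.06). Of 13 dendritic cell markers, Ccl22 rose and 0 fell, while Itgax, Flt3 and Xcr1 were not called (0.29, -0.08 and -0.18). Itgax had 1.01 on series 13 and -0.06 on single-number slides, which differed. Of 13 natural killer and cytotoxic markers, 2 rose: the granule protease Gzmb, with 1.08 (SE 0.12), and Nkg7, with 0.38 (SE 0.07). The natural killer receptor Ncr1 had -0.11. Car2 fell among 8 erythroid markers (-0.70 (SE 0.13)) and Scd1, a desaturase, among 8 adipocyte markers (-1.03 (SE 0.11)). None of 13 B cell and plasma cell markers or 17 fibroblast and endothelial markers was called, and Blk (-0.49) and Pecam1 (-1.10) lay furthest from 0. Pecam1 differed between the sets, with 0.13 on series 13 and -1.72 on single-number slides.

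Neutrophil and monocyte markers separated the slide sets. None of 11 was called over the 6 arrays, but 8 were higher on series 13 and 0 lower, where 8.19% and 0.869% of all probes were. The list median per array was 1.25 and 0.75 on series 13 slides, against 0.21, 0.17, -0.04 and 0.12 on single-number slides. S100a8, a calcium-binding protein abundant in neutrophils, measured 1.68 and 2.52 on the series 13 slides and 1.04, 0.43, 0.47 and 0.43 on the single-number slides (difference 1.51, SE 0.29, adjusted p = 0.0214), and S100a9 had set means of 2.19 and 0.38 for series 13 and single-number slides. The defining granule genes Elane and Mpo had 0.31 and -0.15 and 0.74 and -0.46. Of 17 fibroblast and endothelial markers 6 were higher on series 13 and 0 lower, where 8.19% and 0.869% of all probes were.

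**Figure D2:**
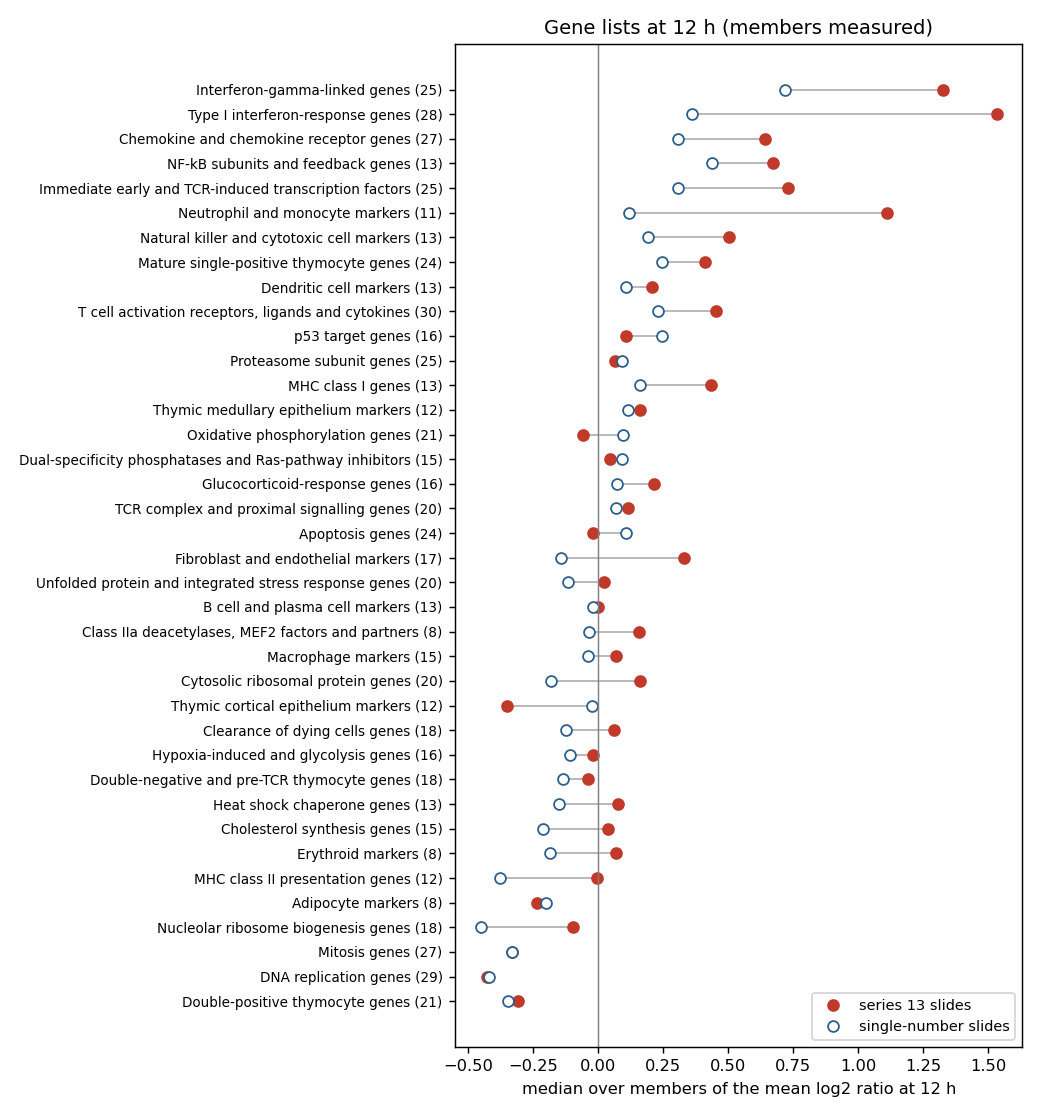
Median over members of the mean log2 ratio at 12 h (x axis) for each gene list with at least 8 measured members (y axis, number measured in brackets). Filled points are the series 13 slides (2 arrays) and open points the single-number slides (4 arrays). Type I interferon genes (1.53 and 0.36) and neutrophil markers (1.11 and 0.12) lie far apart between the sets, whereas DNA replication genes (-0.43 and -0.42) coincide.

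Fitted with slide set as a term, 1492 probes (9.06%) differed between the sets, 1349 higher on series 13 (8.19%) and 143 lower (0.869%). Of the 557 probes called over the 6 arrays, 71 were among them. Leaving out 1 array moved the count to between 863 and 2600. Of the 6 genes named for the widest positive gaps, 5 were low on the single-number slides. Ftl1, the ferritin light chain, measured 0.14 and 0.61 on the series 13 slides and -3.79, -3.64, -3.60 and -3.43 on the single-number slides (difference 4.00, SE 0.15, adjusted p = 0.000357). Rpsa, a ribosomal protein, measured 0.53 and 0.15 on the series 13 slides and -3.09, -3.24, -3.999 and -3.64 on the single-number slides, and Acly, which makes acetyl-CoA for lipid synthesis, had set means of -0.01 and -3.51. Sema4d, a semaphorin of T cells, had 0.09 and -3.40 and the cytokine gene Ltb 0.81 and -2.68.

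In all, 68 probes lay below -2 on all 4 single-number slides, and 64 of them lay within 1 of 0 on both series 13 slides. At 6 h the same 68 had a median of -0.28. Of their symbols 6 have a second probe on the array, and those probes had means of -1.56 to 0.34 on the single-number slides, 0 of 6 below -2. In the other direction, 53 probes lay above 2 on both series 13 slides and 6 on all 4 single-number slides. Timp1, an inhibitor of matrix proteases, measured 4.40 and 4.23 on the series 13 slides and 0.41, 0.24, 0.22 and 0.62 on the single-number slides (difference 3.94, SE 0.17, adjusted p = 0.000357).

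Lower on series 13 were Nlrp4c, of the NOD-like receptor family, with -0.18 and -0.10 on the series 13 slides and 2.64, 2.51, 2.97 and 2.88 on the single-number slides, and Xlr3a and Xlr3c, X-linked lymphocyte-regulated genes and close paralogs, with set means of -0.47 and 1.34 and of -0.48 and 1.16. Uty and Eif2s3y, genes of the Y chromosome, had set means of -1.26 and 0.74 and of -0.47 and 1.01, both called lower on series 13. Eif2s3y has a second probe at -0.02. After these were seen, the other Y-linked genes were looked up: Kdm5d had -0.51 and 0.57 and differed between sets (adjusted p = 0.0474), and Zfy1 had 0.17 and 0.01 and was not called (adjusted p = 0.620). Kmt2e had -0.97 and 0.61, and its second probe had -0.48 and -0.03.

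**Figure D3:**
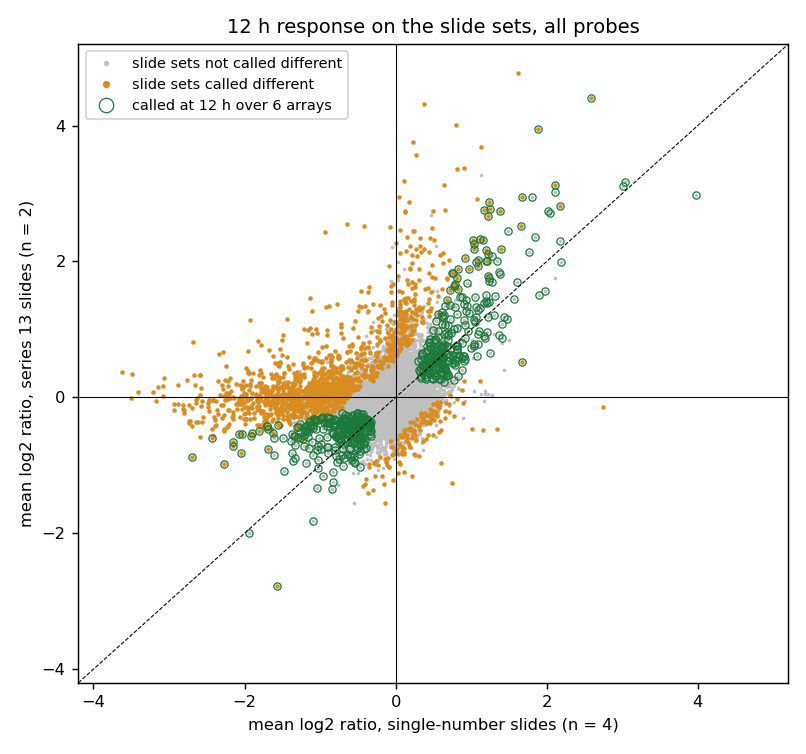
Mean log2 ratio of every probe on the series 13 slides (y axis, 2 arrays) and on the single-number slides (x axis, 4 arrays). Orange points differed between the sets (1492 probes), grey points did not pass that test, and green circles are the 557 probes called over the 6 arrays. A band of probes reaches below -2 on the single-number slides with series 13 means near 0.

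Beyond the lists, the lowest called genes were mostly lower on the single-number slides. Apoe, a lipid carrier made by macrophages, measured -0.93 and -0.27 on the series 13 slides and -2.43, -2.25, -2.66 and -2.38 on the single-number slides (mean -1.82, SE 0.35, adjusted p = 0.0482). Psap, a lysosomal activator precursor, had set means of -0.53 and -2.03, the lysosomal mannosidase gene Man2b1 -0.53 and -1.90, Hs6st1, which sulphates heparan, -0.56 and -1.91, and Ctu2, a tRNA thiolase subunit, -0.54 and -2.07 for series 13 and single-number slides. Tcf19, a cell cycle-linked gene, had -0.71 and -2.16. Rasgrp2, an activator of Rap1, had -0.49 and -1.81. All of these lost their call when some single array was left out.

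Set against 6 h, the nearest earlier time with the same split of slides, 100 probes differed (0.607%), 56 higher at 12 h (0.34%) and 44 lower (0.267%). The balance of directions depended on the fit. It was 227 higher and 588 lower with all 24 thymocyte arrays, 223 and 696 with slide set as a block, 758 and 1991 on single-number slides alone, and 286 and 972 without series 13 slide 7 at 12 h. All 3 times were measured over uninjected thymocytes. Ifi27l2a had log2 ratios of 0.01 ± 0.41 at 3 h, 0.79 ± 0.51 at 6 h and 2.39 ± 0.40 at 12 h (SD, n = 6 each), and was higher at 12 h than at 6 h (difference 1.60, SE 0.22, adjusted p = 0.0120). The 12 h arrays lay above all 6 h arrays. S100a6 had -0.13 ± 0.18 at 3 h, -0.10 ± 0.22 at 6 h and 1.40 ± 0.52 at 12 h, again without overlap (difference 1.50, SE 0.21, adjusted p = 0.0120). Adam19, a membrane protease, had -0.02 ± 0.45 at 3 h, 0.17 ± 0.26 at 6 h and 1.35 ± 0.36 at 12 h (difference 1.17, SE 0.15, adjusted p = 0.00858). Cpt1a, which brings fatty acids into mitochondria, differed by 1.44, the actin bundler Pls3 by 1.39 and Tada1, of the SAGA complex, by 1.35.

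Stmn1, a microtubule regulator of dividing cells, had -0.02 ± 0.55 at 3 h, -0.10 ± 0.42 at 6 h and -1.35 ± 0.33 at 12 h and was lower at 12 h than at 6 h (difference -1.25, SE 0.17, adjusted p = 0.0120). The 12 h arrays lay below all 6 h arrays. Fbl, the nucleolar methyltransferase, differed by -1.24, Trib1, a Tribbles pseudokinase, by -1.16, the kinetochore gene Pmf1 by -1.14, Incenp, of the chromosomal passenger complex, by -1.11, and Cactin by -1.08. Tada1, Fbl and Incenp differed between the sets at 12 h, with means for series 13 and single-number slides of 1.78 and 0.48 for Tada1, -0.19 and -1.34 for Fbl and -0.56 and -1.33 for Incenp. Hsp90aa1 and Plk1 were lower at 12 h as well, by -0.67 and -0.85. Gadd45b had 3.49 at 3 h, 3.19 at 6 h and 2.22 at 12 h (difference -0.97, SE 0.14, adjusted p = 0.0120). Of the 12 genes the naming rule gave for this difference, Ifi27l2a, S100a6, Cpt1a, Pls3, Adam19 and Stmn1 kept their call whichever of the 12 arrays was left out. Among the lists, 4 of 24 mature single-positive genes were higher at 12 h than at 6 h and 0 lower. For mitosis, 0 of 27 genes were higher and 2 lower. Over all probes, 0.34% were higher and 0.267% lower.

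Set against 3 h, 214 probes differed (1.3%), 99 higher at 12 h (0.601%) and 115 lower (0.699%). All 3 h slides are titled series 13, so time and slide set are partly mixed in this difference. The balance turned with the slides used. Series 13 slides alone gave 261 higher and 32 lower, slide set as a block 384 and 164, and single-number 12 h slides against the 3 h slides with recurring titles 510 and 1756. Rtp4 had 0.48 ± 0.18 at 3 h, 1.34 ± 0.17 at 6 h and 2.44 ± 0.59 at 12 h, with no overlap between any of the times (difference 1.96, SE 0.24, adjusted p = 0.00604). Gbp2 had 0.58 at 3 h, 1.90 at 6 h and 1.95 at 12 h, and its difference between 12 h and 6 h was not called (difference 0.05, SE 0.20, adjusted p = 0.957). Tgtp1 had 1.20 at 3 h, 3.25 at 6 h and 3.19 at 12 h (difference 1.99, SE 0.41, adjusted p = 0.0363). Ifitm3 was higher at 12 h than at 3 h by 1.84, Arhgap20 by 2.02, and Tada1, which was below 0 at 3 h (-1.19 at 3 h, -0.43 at 6 h and 0.92 at 12 h), by 2.10. Of the 12 genes the naming rule gave for this difference, 8 kept their call whichever of the 12 arrays was left out, whereas Arhgap20 and Tgtp1 kept it in 4 of 12 such fits and Nolc1 and Stk26 in 2. Of 25 interferon-gamma-linked genes 4 were higher at 12 h than at 3 h and 0 lower, and of 28 type I genes 2 were higher and 0 lower.

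Receptor-induced factors were lower at 12 h than at 3 h for 5 of 25 genes and higher for 0. Over all probes, 0.699% were lower and 0.601% higher. Irf4 had 2.88 ± 0.36 at 3 h, 2.16 ± 0.31 at 6 h and 1.41 ± 0.37 at 12 h (difference -1.47, SE 0.20, adjusted p = 0.00697), with every 12 h array below every 3 h array. Fos, of the AP-1 factor, had 1.55 at 3 h, 1.18 at 6 h and 0.21 at 12 h (difference -1.34, SE 0.22, adjusted p = 0.0153). Egr1 had 1.91 at 3 h, 1.16 at 6 h and 0.93 at 12 h (difference -0.99, SE 0.20, adjusted p = 0.0378). Nr4a1 had 3.07 at 3 h, 3.04 at 6 h and 1.75 at 12 h, and its 12 h values did not pass the test against 3 h (difference -1.31, SE 0.33, adjusted p = 0.0803), the series 13 slides at 12 h reaching 3.25. Cd5, an inhibitory receptor, had 1.53 at 3 h, 0.71 at 6 h and 0.16 at 12 h (difference -1.37, SE 0.22, adjusted p = 0.0130). Ndrg1 differed by -1.55, though its second probe disagrees with the first at 12 h, Nolc1, a nucleolar protein, by -1.98 and the kinase gene Stk26 by -1.49. Set means at 12 h for series 13 and single-number slides differed for Cd5 (0.70 and -0.12), Ndrg1 (0.55 and -0.40), Nolc1 (-0.57 and -2.42) and Stk26 (-0.40 and -1.81). Nucleolar genes were lower at 12 h for 5 of 18 and higher for 0. By contrast Prss16 had -1.98 ± 0.24 at 3 h, -1.84 ± 0.13 at 6 h and -1.96 ± 0.35 at 12 h, and neither difference was called (-0.12 against 6 h, 0.02 against 3 h). Tnfrsf4 had 2.47 ± 0.20 at 3 h, 3.00 ± 0.25 at 6 h and 3.08 ± 0.29 at 12 h and was higher at 12 h than at 3 h (difference 0.61, SE 0.12, adjusted p = 0.0333).

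**Figure D4:**
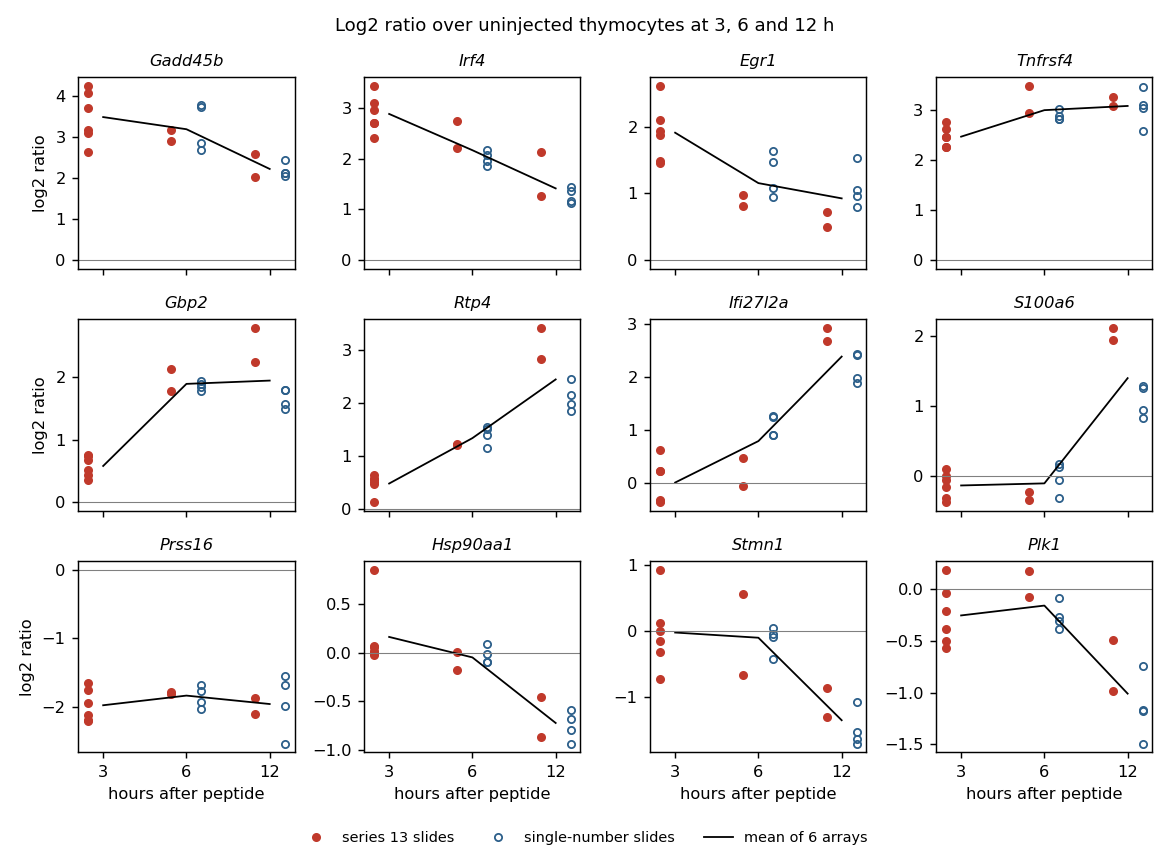
Log2 ratio over uninjected thymocytes (y axis, own scale per panel) at 3, 6 and 12 h after peptide (x axis) for 12 genes. Filled points are series 13 slides, open points single-number slides, and the line joins the means of 6 arrays. The means of Irf4 and Egr1 are highest at 3 h, those of Rtp4, Ifi27l2a and S100a6 are highest at 12 h, and those of Stmn1, Hsp90aa1 and Plk1 are lowest at 12 h.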

How the data were processed

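Each array's deposited value per probe, from the submitters' value table, was taken as a log2 ratio between its channels. Per the labels, an acid phenol and guanidinium reagent gave the RNA, and aminoallyl-labelled cDNA was coupled to Cy3 or Cy5. Scanner, background correction, normalization, log base and direction of the ratio were not given in the sources used, and signal over background was not used here, so the number of arrays limits the precision. The table held 16463 probes with 0 missing values. One symbol was assigned to 14551 probes by the platform annotation, several to 6 and none to 1906, and 14272 probes had an Entrez ID in the RefSeq table.

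Each array was centred on its median. limma 3.58.1 (lmFit and eBayes, statmod 1.5.0, R 4.3.3) was fitted per probe with a dye orientation term. The 12 h mean was tested against 0 on 6 arrays, the slide set difference on the same 6, and 12 h minus 6 h and 12 h minus 3 h on 12 arrays each, with Benjamini-Hochberg adjustment over all probes. SE is limma's moderated standard error. The fits were tested on simulated data with independent noise on each array. Since arrays of a set were correlated in the real data, that test cannot show how reliable the calls are here. Alternatives changed centring, scaling, dye term, array weights, empirical Bayes setting, arrays used and treatment of slide set.

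Named genes were 12 called probes at each end of the ranking, with 1 symbol and the same sign on all 6 arrays, up to 4 called members per gene list (or the member furthest from 0), the 6 highest and 6 lowest per difference, and Nr4a1, Bcl2l11, Egr2, Cd69, Rag1, Cd4 and Cd8a. Others named give members of the lists. One gene that the rule gave is not reported here. Where a gene had several probes, the one earliest in the table stands for it. The arrays, the 39 lists (685 of 800 members measured) and the tests were chosen with earlier results of these data known.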

Additional observations from a re-analysis of the deposited data

Results flagged for a closer look

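Among 99 sets of 6 array values checked, 7 held a value far from the other 5, where chance gives about 1 in 20. Series 13 slide 7 had the most probes at least 2-fold higher (956, against 402 or fewer on the other 5 arrays). On that slide the log2 ratio was 5.31 for Tgtp1, 2.12 for Irf4, 0.33 for Tsc22d3 and -1.30 for Mcm10. On series 13 slide 8, Ifitm3 had 3.81 and Hdac7 -0.009.

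The response differed between slide sets by test. The log2 differences, series 13 minus single-number slides, were Ftl1 4.00, Timp1 3.94, Rpsa 3.83, Ltb 3.50, Acly 3.50 and Sema4d 3.49 among those higher, and Nlrp4c -2.89, Uty -1.9998, Xlr3a -1.81, Xlr3c -1.64, Kmt2e -1.58 and Eif2s3y -1.47 among those lower.

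The response differed between times by test. The log2 differences of 12 h minus 6 h were Ifi27l2a 1.60, S100a6 1.50, Cpt1a 1.44, Pls3 1.39, Tada1 1.35 and Adam19 1.17 among those higher, and Stmn1 -1.25, Fbl -1.24, Trib1 -1.16, Pmf1 -1.14, Incenp -1.11 and Cactin -1.08 among those lower. The log2 differences of 12 h minus 3 h were Ifi27l2a 2.38, Tada1 2.10, Arhgap20 2.02, Tgtp1 1.99, Rtp4 1.96 and Ifitm3 1.84 among those higher, and Nolc1 -1.98, Ndrg1 -1.55, Stk26 -1.49, Irf4 -1.47, Cd5 -1.37 and Fos -1.34 among those lower. All 6 slides at 3 h are of series 13, so in this difference time and slide set cannot be fully told apart.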

How the results depend on the processing

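Of 12 h over uninjected thymocytes, 557 probes were called. The count was 3424 with all 24 thymocyte arrays in 1 fit, 3849 with array weights, 3082 with slide set as a fixed block, 138 with it as a random block and 4067 on single-number slides alone. It was 0 on the 2 series 13 slides alone (limma, 874 at an unadjusted p under 0.05) and 0 with slides of a set averaged (989 unadjusted), where few residual degrees of freedom were left. With no difference at all, a share of 0.05 of the 16463 probes would pass an unadjusted p under 0.05. The unadjusted counts given here and below were not tested against that share, so they are no evidence of further signal. Leaving out an array changed the count of 557 to between 46 and 1832. Without the dye term it was 712, of which 40.7% were higher, against 49.2% of the 557. The slide set difference of 1492 became 739 with array weights and 863 to 2600 with an array left out. The 12 h minus 6 h count of 100 became 815 with all 24 arrays, 2643 with weights, 919 with slide set as a block, 2749 on single-number slides, 0 on series 13 slides alone (729 unadjusted), 0 with slides averaged (516 unadjusted) and 21 to 1258 with an array left out. The 12 h minus 3 h count of 214 became 999 with all 24 arrays, 2320 with weights, 548 with slide set as a block over 3 times, 293 on series 13 slides alone and 90 to 893 with an array left out. Chosen after seeing the data, single-number 12 h slides against the 3 h slides with recurring titles gave 2266, and series 13 slides against the other 3 h slides gave 8. The causes were not tested. No centring, scaling to one median absolute deviation and robust eBayes kept each count within 1.5 times. Among named genes 4 means changed sign, none called over the 6 arrays: H1f2 was -0.006 on single-number slides, and Atf4 was 0.061, Rpsa 0.34 and Pecam1 0.13 on series 13 slides. No paired analysis was possible because the labels give no replicate numbers.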
